A study of Homo sapiens with 8 samples.

Results

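Alpha-arrestins are adaptor proteins that bring membrane receptors and transporters to ubiquitin ligases. Here 5 of their genes (TXNIP, ARRDC1, ARRDC2, ARRDC3 and ARRDC4) were followed together with MLXIP and MLXIPL, which encode the glucose-sensing transcription factors MondoA and ChREBP. These 7 genes, of 18417 measured, were chosen by family and pathway with the differences between the 4 treatment groups already known. Their differences are therefore a description. Where limma's calls are counted for them, the counts are set beside those of all genes and support nothing. For each, the brightest probe set that pairs with its symbol alone was used: 7904726 for TXNIP, 7986350 for ARRDC4, 8113073 for ARRDC3, 8026915 for ARRDC2, 8159692 for ARRDC1, 7959361 for MLXIP and 8140085 for MLXIPL. Total RNA came from U373, an established human astrocytoma cell line, kept in medium with hormone-depleted serum and then treated for 12 h. The groups were vehicle, 10 nM progesterone, 1 µM RU-486 (mifepristone, an antagonist of the progesterone and glucocorticoid receptors), and both steroids at those doses, called the combination. Each group had 2 arrays, 8 in all, of 1 cell line without a genetic change named in the labels. The titles say RU-486 while the descriptions of the same samples give another compound code, which was taken to be that drug. The field for the line holds a shortened name, taken to be U373. The labels speak of biological replicates without saying that they were separate cultures, so any p-value measures the spread between these arrays, which may be technical.

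MondoA and ChREBP bind DNA with the partner MLX at pairs of E-boxes, once sugar phosphates accumulate in the cell. TXNIP and ARRDC4 are their best known targets, and both proteins lower glucose uptake, TXNIP by driving glucose transporters off the cell surface. TXNIP also binds thioredoxin, ARRDC3 controls the trafficking of membrane proteins such as integrin beta-4, and ARRDC1 drives the budding of vesicles at the plasma membrane. FOXO factors and the glucocorticoid receptor are known to act on several alpha-arrestin genes in other cells.

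The promoters of 3 of these genes are shown because 2 of them, TXNIP and ARRDC4, are the classical MondoA targets and the third, ARRDC3, differed most between the groups. Each is the 250 bases before a start site in RefSeq (GRCh38.p14), written 5′ to 3′ on the gene's strand, with every motif match in capitals. TXNIP has another start site, whose window held no match and is not shown. The TXNIP window lies at chr1:145996580-145996829 (minus strand), that of ARRDC4 at chr15:97960453-97960702 (plus strand), and those of the upstream and downstream start sites of ARRDC3 at chr5:91383318-91383567 and chr5:91380098-91380347 (minus strand).
TXNIP: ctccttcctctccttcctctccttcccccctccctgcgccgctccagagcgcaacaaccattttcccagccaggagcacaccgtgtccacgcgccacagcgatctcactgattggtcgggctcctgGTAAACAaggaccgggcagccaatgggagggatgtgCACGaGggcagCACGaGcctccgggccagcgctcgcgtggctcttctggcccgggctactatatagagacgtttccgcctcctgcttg
ARRDC4: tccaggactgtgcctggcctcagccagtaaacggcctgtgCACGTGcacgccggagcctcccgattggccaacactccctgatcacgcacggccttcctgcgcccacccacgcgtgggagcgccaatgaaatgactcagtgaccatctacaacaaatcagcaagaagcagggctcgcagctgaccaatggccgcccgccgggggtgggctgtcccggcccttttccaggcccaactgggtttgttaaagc
ARRDC3 upstream: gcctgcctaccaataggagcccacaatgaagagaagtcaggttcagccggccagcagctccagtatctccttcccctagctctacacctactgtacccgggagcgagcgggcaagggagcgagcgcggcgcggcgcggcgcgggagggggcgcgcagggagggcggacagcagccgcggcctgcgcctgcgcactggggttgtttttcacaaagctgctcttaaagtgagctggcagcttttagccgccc
ARRDC3 downstream: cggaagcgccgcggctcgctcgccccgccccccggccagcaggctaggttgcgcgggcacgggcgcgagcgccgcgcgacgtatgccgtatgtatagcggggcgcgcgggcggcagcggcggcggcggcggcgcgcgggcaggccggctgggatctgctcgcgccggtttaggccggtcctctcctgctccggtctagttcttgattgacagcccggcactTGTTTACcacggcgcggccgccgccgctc

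All 7 genes had an entry, with 10 windows in all, and the search covered 300 bases around each start, on both strands. The E-box CACGTG was present 210 bases before the ARRDC4 start and in 7.26% of 35116 windows. Paired perfect boxes, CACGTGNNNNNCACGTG, were in 0.0057% of windows and in none of these 10. The looser pair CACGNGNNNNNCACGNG was in 0.057% of windows and lay 88 bases before the TXNIP start, where its fixed letters are the capitals nearest the end. A form that keeps only the outer letters, CACGNNNNNNNNNCGTG, was in 0.242% of windows and matched 181 bases before the MLXIP start. The FOXO core GTAAACA was in 3.42% of windows, 124 bases before the TXNIP start and, on the opposite strand, 29 bases before the downstream ARRDC3 start. The palindrome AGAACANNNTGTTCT, a strict glucocorticoid response element, was in 0.00285% of windows and in none of these 10. None of the matches in the 10 windows overlap each other. The looser pair, the FOXO core and the palindrome were added after the sequences had been seen. A match shows only that the letters are there, and a window without one says nothing about the factor.

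All levels are the authors' log2 values, so a difference of 1 is a doubling. Levels of different genes come from different probes and are not compared with each other. The array background was taken from 341 olfactory receptor genes, rarely transcribed outside the nose, of which 95% had a mean log2 level below 6.22. ARRDC4, at a mean log2 level of 6.59, and MLXIPL, at 6.58, lay close to this background, and 97.4% of the olfactory receptor genes were dimmer than each. The other 5 genes were brighter than every olfactory receptor gene. Of 8 astrocyte and astrocytoma markers 6 were above 6.22, among them VIM at 13.4 and S100B at 9.59, while AQP4 at 4.19 and ALDH1L1 at 6.19 were not. Markers of other cells were above it in part: 2 of 4 for neurons, 0 of 3 for oligodendrocytes, and 2 of 4 each for leukocytes, endothelium and epithelium. In bulk RNA of 1 cell line, fewer cells that express a gene and less of its RNA per cell cannot be told apart. The progesterone replicates differed more than the others: the SD of their difference over all genes was 0.35 log2 units, against 0.16 to 0.18 in the other groups.

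**Figure D1:**
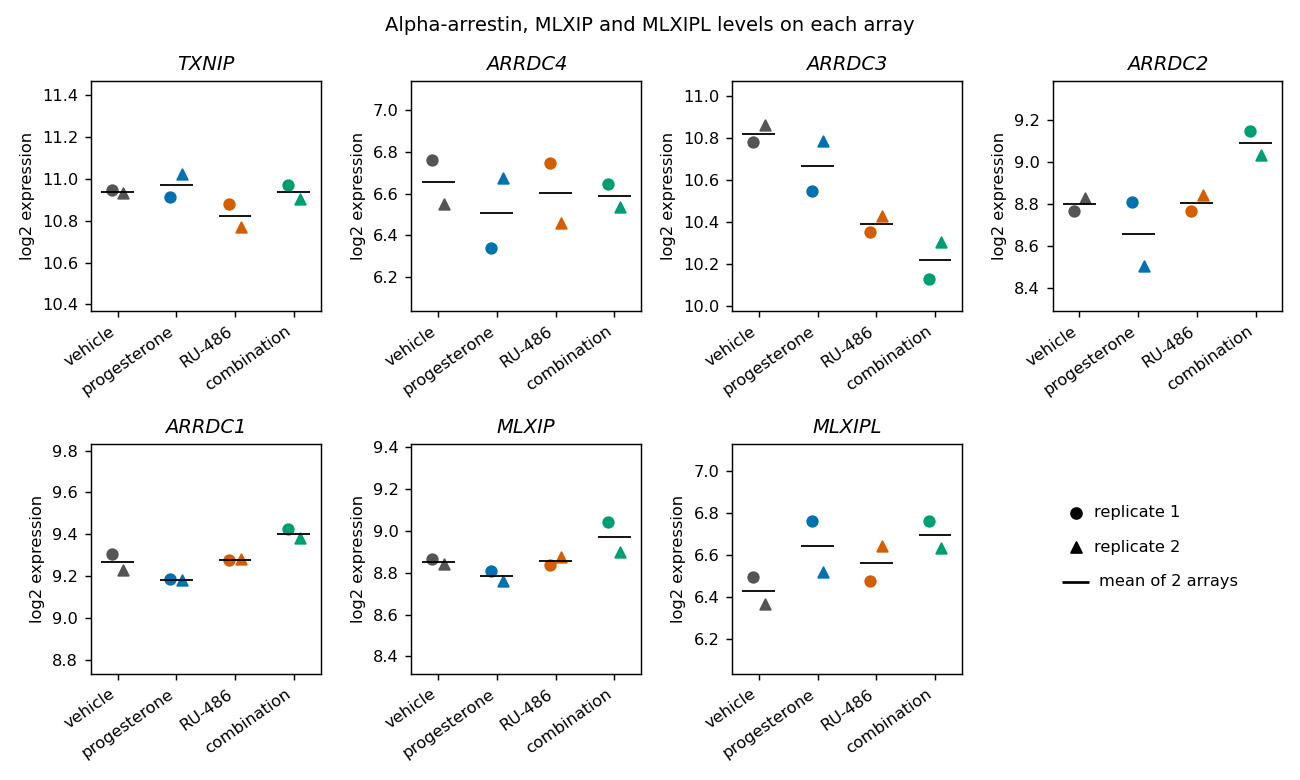
Log2 expression of the 7 genes (y axis, 1.1 log2 units high in every panel) in the 4 groups (x axis), with circles for replicate 1, triangles for replicate 2 and a line at the mean of the 2 arrays. ARRDC3 lies between 10.13 and 10.43 on the 4 arrays with RU-486 and between 10.55 and 10.86 on the 4 without it.

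ARRDC3 had the widest spread of the 7 genes and was lower on every array that received RU-486. Its log2 levels were 10.78 and 10.86 in vehicle and 10.55 and 10.79 in progesterone. They were 10.35 and 10.43 in RU-486 and 10.13 and 10.30 in the combination. The 4 arrays with RU-486 thus lay below the 4 without it, and the mean levels ran in the order vehicle, progesterone, RU-486, combination. Vehicle and progesterone overlapped, while RU-486 and the combination did not.

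RU-486 alone differed from vehicle by -0.43 ± 0.11 log2 units (SE) for ARRDC3, a level 25.9% lower, and 0.934% of all genes had a more negative difference. The combination differed from vehicle by -0.60 ± 0.11, or 34.2% lower, and 3.37% of genes were more negative. Against progesterone alone, the combination stood at -0.45 ± 0.11. Averaged over arrays with and without progesterone, the RU-486 difference was -0.44 ± 0.08. That of progesterone alone against vehicle was -0.15 ± 0.11, and its own 2 arrays were 0.24 apart. Replicate 1 was below replicate 2 in all 4 groups. Between arrays of the same replicate number, ARRDC3 was lower with progesterone each time, with differences of -0.23 and -0.07 without RU-486 and of -0.22 and -0.12 with it. With the replicate block the SE of the progesterone difference was 0.08. These comparisons share arrays and are not independent of each other. The interaction, which asks whether the RU-486 difference changes with progesterone, was -0.02 ± 0.16 for ARRDC3, so the RU-486 difference was similar with and without the hormone, to within that error.

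ARRDC2 had a different pattern, with its highest levels in the combination. The vehicle arrays were at 8.77 and 8.83 and the progesterone arrays at 8.81 and 8.50. RU-486 gave 8.77 and 8.84, and the combination 9.15 and 9.03. The combination arrays lay above the other 6, whereas RU-486 alone overlapped vehicle. The combination differed from vehicle by 0.29 ± 0.11 log2 units (1.23-fold), from RU-486 by 0.29 ± 0.11 and from progesterone by 0.44 ± 0.11 (1.35-fold). The last value leans on progesterone replicate 2, the lowest array, and without it was 0.28. RU-486 alone differed from vehicle by 0.006 ± 0.11, and the interaction for ARRDC2 was 0.43 ± 0.16, or 0.28 without progesterone replicate 2.

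ARRDC1 followed ARRDC2 in direction at a smaller size. Vehicle gave 9.31 and 9.23, progesterone 9.18 and 9.18, RU-486 9.27 and 9.28, and the combination 9.43 and 9.38 (log2 levels). The combination arrays were again above the other 6, and the progesterone arrays were the lowest pair. The difference was 0.14 ± 0.07 for the combination against vehicle, -0.08 ± 0.07 for progesterone and 0.01 ± 0.07 for RU-486. Over all 8 arrays ARRDC1 spanned 0.24 log2 units, and 17.5% of genes spanned less.

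TXNIP, the member that binds thioredoxin, was at nearly the same level in all groups. Vehicle gave log2 levels of 10.94 and 10.93, progesterone 10.92 and 11.02, RU-486 10.88 and 10.77, and the combination 10.97 and 10.90. The RU-486 arrays were the lowest pair. RU-486 alone differed from vehicle by -0.11 ± 0.08, and its 2 arrays were 0.11 apart. The combination differed from vehicle by -0.0008 ± 0.08 and progesterone by 0.03 ± 0.08. TXNIP spanned 0.26 log2 units in all, and 20.1% of genes spanned less.

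ARRDC4, which shares glucose-dependent control with TXNIP, varied as much within groups as between them. The vehicle arrays were at 6.76 and 6.55 and the progesterone arrays at 6.34 and 6.67. Those of RU-486 were at 6.75 and 6.46 and those of the combination at 6.64 and 6.53. Every group overlapped each of the others. The difference from vehicle was -0.15 ± 0.15 for progesterone, -0.05 ± 0.15 for RU-486 and -0.07 ± 0.15 for the combination. None of these exceeded its SE.

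MLXIP, the gene for MondoA, was slightly lower in progesterone than in vehicle or RU-486, and slightly higher in the combination. Vehicle gave 8.86 and 8.84, progesterone 8.81 and 8.76, RU-486 8.84 and 8.88, and the combination 9.04 and 8.90. The combination differed from vehicle by 0.12 ± 0.08, and without combination replicate 1 by 0.05. Progesterone differed from vehicle by -0.07 ± 0.08 for MLXIP. MLXIPL, the gene for ChREBP, was at 6.49 and 6.37 on the vehicle arrays and 6.76 and 6.52 on the progesterone arrays. It was at 6.48 and 6.64 with RU-486 and at 6.76 and 6.63 with both. Vehicle was its lowest group, with overlap only with RU-486. The MLXIPL difference from vehicle was 0.27 ± 0.12 for the combination, 0.21 ± 0.12 for progesterone and 0.13 ± 0.12 for RU-486, in the range where this probe set is dim. Single arrays moved these values: progesterone gave 0.09 without its replicate 1 and 0.33 without its replicate 2, and RU-486 gave 0.21 and 0.05 likewise. With the axis score described below as a covariate the combination gave 0.14.

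**Figure D2:**
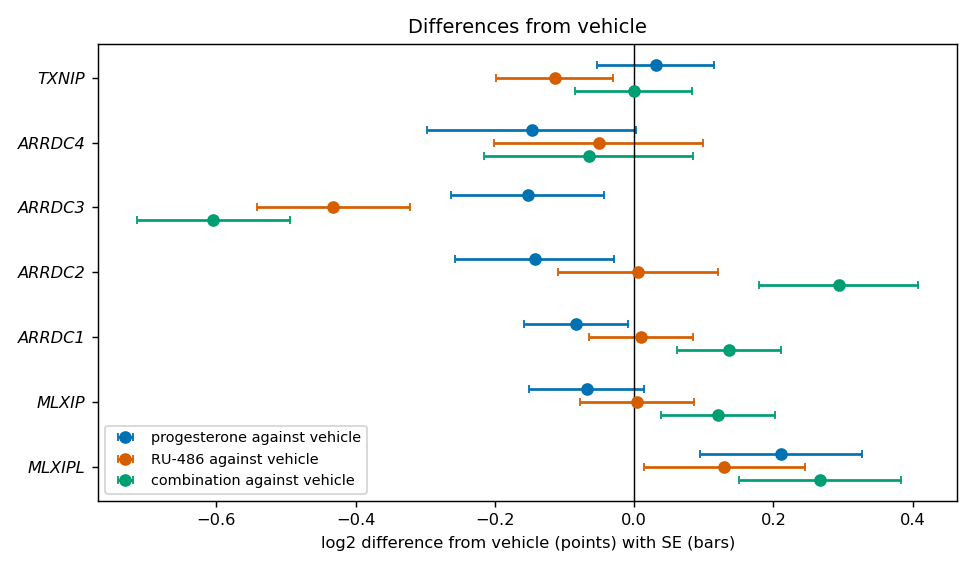
Log2 difference from vehicle (x axis) of the 7 genes (y axis) for each of the 3 treatments, as points with SE from the fit as bars. ARRDC3 is at -0.43 for RU-486 and -0.60 for the combination, while TXNIP is within 0.11 of vehicle in all 3 treatments.

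Set against all genes, the counts were as follows. Limma called 0 of the 7 genes at an adjusted p under 0.05 in each of the 8 comparisons, where the average effect of RU-486 had 0.0326% of all genes called (6 genes) and each of the other 7 had 0%. At an unadjusted p under 0.05 were ARRDC3 for RU-486 against vehicle (3.1% of all genes), ARRDC3 and ARRDC2 for the combination against vehicle (13.2%) and for RU-486 averaged over both backgrounds (11%), and ARRDC1, ARRDC2 and ARRDC3 for the combination against progesterone (14.6%). ARRDC2 was there too for the combination against RU-486 (4.75%) and for the interaction (5.28%). None of the 7 was for progesterone against vehicle (6.13%) or its average effect (5.03%).

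In 4 of the 7 genes (ARRDC1, ARRDC2, MLXIP and MLXIPL) both combination arrays were above both vehicle arrays, as they were in 42.7% of all genes, and 1, ARRDC3, was below, as were 18.8%. For RU-486 alone 0 genes were wholly above vehicle (24% of all genes), and TXNIP and ARRDC3 were below (15.7%). For progesterone alone MLXIPL was above (16.3%), and ARRDC1 and MLXIP were below (15.8%). ARRDC1, ARRDC2 and MLXIP were above in the combination against progesterone (28.1%) and ARRDC3 below (12.6%). Against RU-486, the combination was above for those 3 and TXNIP (33.3%) and below for ARRDC3 (17.1%). With 4 arrays on each side, ARRDC3 was wholly lower with RU-486, as were 1.09% of genes, and 0 of the 7 were wholly higher (4.51%). For progesterone, given with or without RU-486, 0 of the 7 were wholly higher (2.02%) or lower (0.836%). The median difference of the 7 genes from vehicle was 0.12 in the combination, 0.00 in RU-486 and -0.08 in progesterone, against 0.07, 0.01 and 0.00 over all genes. Averaged over arrays with and without RU-486, the progesterone differences ran from -0.16 ± 0.08 for ARRDC3 to 0.17 ± 0.08 for MLXIPL. Since the 7 genes were chosen with these values known, nothing is read from the counts.

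Leaving out progesterone replicate 1 changed the calls. Limma then called ARRDC3 (-0.50 ± 0.07) and ARRDC2 (0.30 ± 0.06) for RU-486 on average, among 998 genes in all. It also called ARRDC3 (-0.57 ± 0.10) and ARRDC2 (0.59 ± 0.09) for the combination against progesterone, among 1090 genes. Progesterone replicate 2 is then the only array of its group, assumed to vary like the rest. Without progesterone replicate 2 instead, the average RU-486 difference was -0.38 for ARRDC3 and 0.15 for ARRDC2. The difference between combination and progesterone was then -0.33 for ARRDC3 and 0.28 for ARRDC2.

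**Figure D3:**
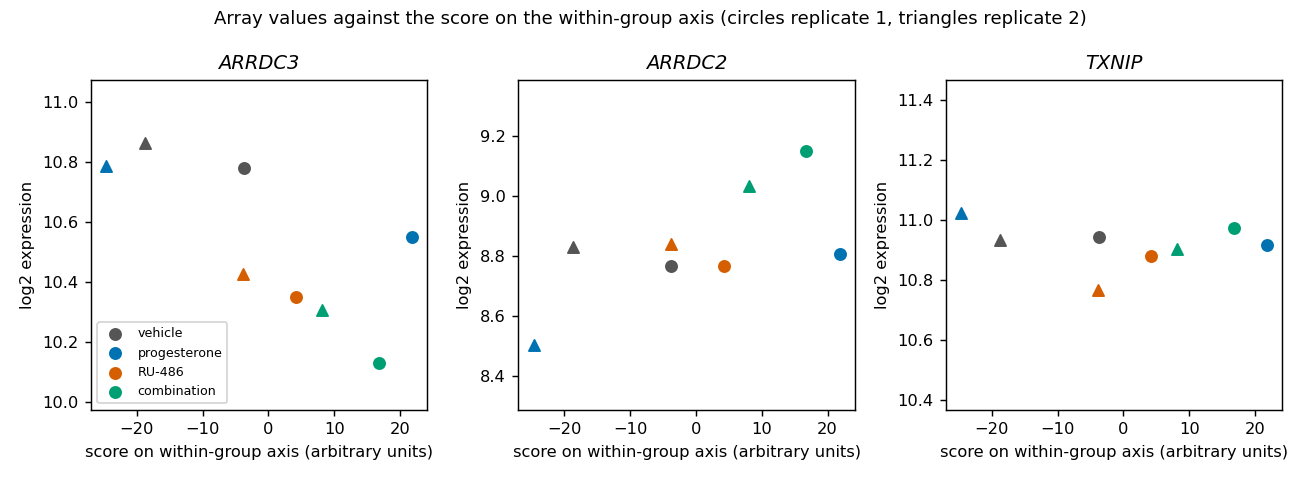
Log2 expression of ARRDC3, ARRDC2 and TXNIP (y axes, 1.1 log2 units high) against each array's score on the within-group axis (x axis, arbitrary units), with colours for groups, circles for replicate 1 and triangles for replicate 2. At scores of -3.84 and -3.71, RU-486 replicate 2 and vehicle replicate 1 have ARRDC3 levels of 10.43 and 10.78.

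A direction of variation shared by many genes also separated replicates, and ARRDC3 varied along it. This within-group axis is the first principal component of the deviations from the group means and held 66.4% of that variance. Scores were 21.8 and -24.7 in progesterone, -3.71 and -18.7 in vehicle, 4.23 and -3.84 in RU-486, and 16.75 and 8.11 in the combination. In each group the array with the higher score had the lower ARRDC3 level. With the score as a covariate the ARRDC3 difference was -0.37 for RU-486 against vehicle, -0.47 for the combination against vehicle and -0.37 for RU-486 on average. The ARRDC2 difference between combination and vehicle was 0.17 with the covariate and 0.29 without it. RU-486 replicate 2 and vehicle replicate 1 have nearly equal scores, and their ARRDC3 levels were 10.43 and 10.78. Beyond these values, the part of the axis in the differences was not tested.

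Genes with a profile like that of ARRDC3 were many. Among 2059 genes with a mean log2 level of at least 6 and an SD of at least 0.2 over the 8 arrays, the median Pearson correlation with ARRDC3 was 0.76, and 144 genes exceeded 0.9. The 5 closest were the centromere gene CENPI, the cholesterol exporter ABCA1, the zinc transporter SLC39A10, EMSY and RASGRP1, with correlations of 0.97, 0.97, 0.96, 0.96 and 0.96. ABCA1 had mean log2 levels of 10.14 in vehicle, 10.12 with progesterone, 9.49 with RU-486 and 9.29 with both. SLC39A10 was at 8.25, 8.08, 7.68 and 7.10 in the same order. For TXNIP the closest genes were SCUBE3, MMP7, KRT15, NREP and the lipid synthesis regulator SREBF1, at 0.76 down to 0.65, and for ARRDC4 they were TCEANC, CATSPER2P1, MYO1D, ACBD7 and TMEM71, at 0.78 down to 0.72. No gene exceeded 0.9 for either. These correlations rest on 8 arrays in 4 groups that share the within-group axis.

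The pathway around the 7 genes was covered by 10 lists, of whose 125 genes 116 were measured. Limma called 0 of the 116 in each of the 8 comparisons, with 21 at an unadjusted p under 0.05 for RU-486 on average (11% of all genes) and 17 for the combination against vehicle (13.2% of all genes). Adjusted p-values below are limma's over all genes. The median difference of all genes was 0.03 for RU-486 on average, with 62.5% of genes above 0, and 0.07 for the combination against vehicle, with 67.5% above 0. The counts of higher means below are to be read against these shares. Of 10 partners in the Max-like network, none was called and 7 had a higher mean with RU-486, with a median of 0.08. MLX, the shared partner of MondoA and ChREBP, differed by 0.08 ± 0.08 (adjusted p = 0.705) and MAX by 0.08 ± 0.05 (adjusted p = 0.598). MYC, the growth regulator of the same network, differed by 0.41 ± 0.09 (adjusted p = 0.333). MYCN and MGA, which compete for the same sites, differed by 0.17 and -0.25.

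Targets of MondoA and ChREBP other than the arrestins showed no shared direction. Of 19 measured, 11 had a higher mean with RU-486 and 8 a lower one, with a median of 0.05 and 0 called. GDF15, a cytokine of cell stress, was at 8.99 and 8.72 in vehicle and 8.84 and 8.41 in progesterone. With RU-486 it was at 9.41 and 10.01 alone and 9.75 and 9.86 in the combination, a difference of 1.02 ± 0.16 (adjusted p = 0.172). KLF10, a glucose-induced repressor, differed by 0.25 ± 0.05 (adjusted p = 0.327) and FASN, the fatty acid synthase, by -0.18 ± 0.07 (adjusted p = 0.434). Against vehicle FASN differed by -0.32 ± 0.10 in RU-486 alone and by -0.11 ± 0.10 in the combination.

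Genes of the processes that the arrestins act on were measured as well. Among 20 genes of glucose uptake and glycolysis, 0 were called and the median was 0.04. SLC2A1, a glucose transporter that TXNIP acts on, differed by -0.10 ± 0.06 (adjusted p = 0.553). SLC2A3, HK1 and PFKFB3 differed by 0.27, 0.14 and 0.14. The thioredoxin system list also held NLRP3 and DDIT4. In it 10 of 11 genes had a higher mean, with a median of 0.07, where 62.5% of all genes had a higher mean. TXN, the thioredoxin that TXNIP binds, differed by 0.10 ± 0.09 (adjusted p = 0.720), TXNRD1, its reductase, by 0.33 ± 0.09 (adjusted p = 0.405), SRXN1 by 0.30 and DDIT4 by 0.28. Of 8 receptor and transporter cargoes 4 had a higher mean and 4 a lower one, with ITGB4 at 0.07, INSR at 0.04 and F2R at -0.08.

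**Figure D4:**
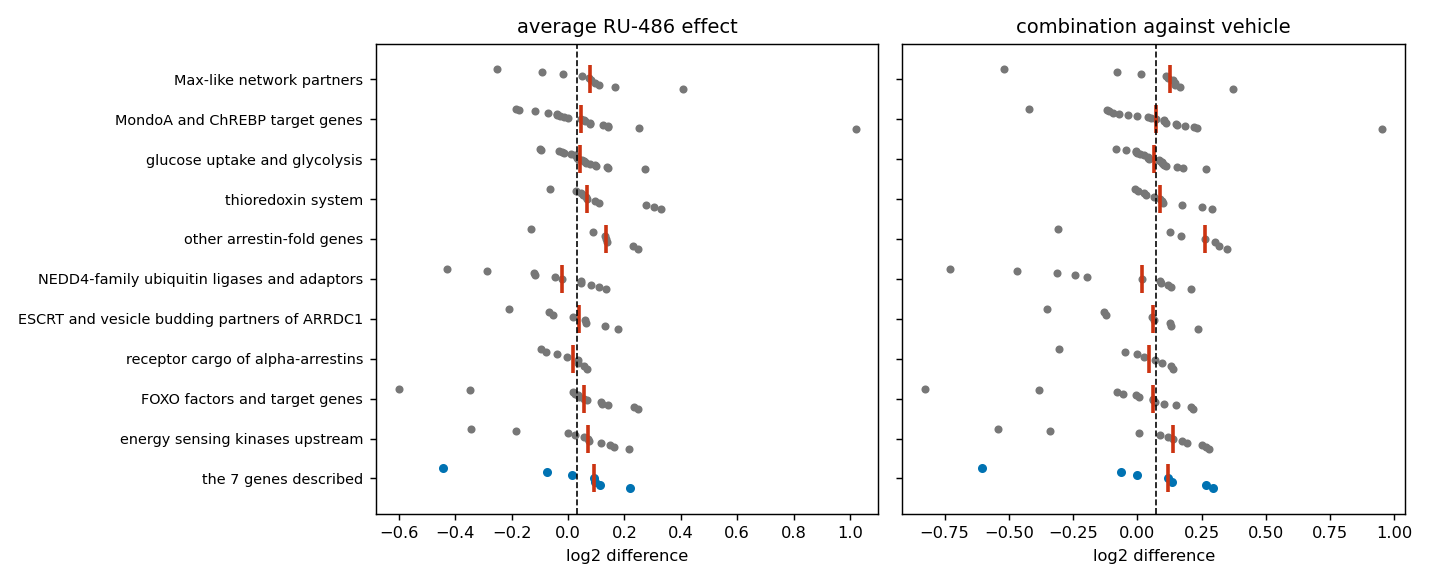
Log2 differences (x axis) of the measured genes of the 10 pathway lists and of the 7 genes described (rows), for the average RU-486 effect on the left and the combination against vehicle on the right. Points are genes, red bars are medians, and the dashed line is the median of all 18417 genes, at 0.03 and 0.07.

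For the combination against vehicle, 6 of 7 other arrestin-fold genes had a higher mean, where 67.5% of all genes did. Their median was 0.26, against 0.07 over all genes, with 0 called. VPS26B, a retromer subunit, differed by 0.35 ± 0.09 (adjusted p = 0.374), ARRB1, beta-arrestin, by 0.26 ± 0.10 (adjusted p = 0.374), and ARR3, cone arrestin, whose probe set is dim, by 0.32. VPS26A, the paralog of VPS26B, was the member with a lower mean. The list of the NEDD4 family, ubiquitin ligases that bind the tails of alpha-arrestins, also held adaptors of these ligases, NDFIP2 among them. In it 6 of 11 genes were above 0 in this comparison, with a median of 0.02. NEDD4 differed by -0.73 ± 0.33 (adjusted p = 0.383). Its arrays lay at 8.85 and 9.41 in vehicle and at 8.34 and 8.47 in the combination, both below vehicle. They lay at 8.51 and 9.47 in progesterone and at 8.64 and 9.08 in RU-486, which overlapped vehicle. Replicates were thus far apart in vehicle, progesterone and RU-486 and closer in the combination. WWP1 differed by -0.47, NDFIP2 by -0.31, ITCH by -0.24 and NEDD4L by 0.12. In the vesicle budding list, partners of ARRDC1, 5 of 8 had a higher mean, with TSG101 at 0.13, VPS4A at 0.24 and VPS4B at -0.35.

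FOXO factors and their targets had 8 of 13 genes above 0 for the combination against vehicle, with a median of 0.06. FOXO3 itself stood at -0.01 ± 0.16. SESN3 differed by -0.83 ± 0.22 (adjusted p = 0.374) and CCNG2 by -0.38 ± 0.11 (adjusted p = 0.374), and both were also below 0 for RU-486 on average, the only 2 of the 13, with 11 above 0. TRIB2 stood at 0.21 ± 0.09 for the combination against vehicle. The energy-sensing kinase list had 9 of 11 genes above 0 and a median of 0.14, with MTOR at 0.25 and RPTOR at 0.27. The 2 below 0 were the AMPK subunits PRKAA1, at -0.54, and PRKAA2, at -0.34. The steroid receptors that the drugs bind were measured too. PGR, the progesterone receptor, was at a mean log2 level of 4.60, below the background limit of 6.22. NR3C1, the glucocorticoid receptor, was at 9.96 and differed by -0.44 ± 0.12 between combination and vehicle (adjusted p = 0.374). In MGA, NEDD4, WWP1, NDFIP2, ITCH, VPS4B, SESN3, PRKAA1 and NR3C1, as in ARRDC3, replicate 1 was below replicate 2 in every group. The genes named above as closest to ARRDC3 in profile had this order too. CCNG2 did not have this order in RU-486. Replicate 1 also had the higher score on the within-group axis in every group, and the combination scored above vehicle. The part of the axis in the differences of these genes was not tested.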

How the data were processed

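RNA from 8 arrays was analysed, 2 for each of 4 groups taken from the sample titles. The authors deposited log2 expression values for 33297 probe sets. RMA, oligo and limma were used, per the submitters' processing notes, without versions. RMA equalises the arrays and compresses differences of dim genes. The array medians were 6.93 to 7.02. Precision is limited by the number of arrays. In the platform annotation 19460 probe sets pair with 1 symbol, 1754 with several and 12083 are not listed, and the brightest probe set per gene was kept (18417 genes). The symbols of the 7 members were checked against RefSeq (GRCh38.p14).

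A model of the 4 group means was fitted with limma 3.58.1 (R 4.3.3) to all 8 arrays (4 residual degrees of freedom), in 8 comparisons, with Benjamini-Hochberg adjustment over all genes. The fit was tested on simulated data with errors drawn independently for each gene and array. Such data lack the within-group axis, so this test says nothing of how the axis affects the calls. Differences between replicates 1 and 2 correlated across genes at 0.20 to 0.51 in all 6 pairs of groups, so the replicate numbers may pair the arrays. The labels do not say what a number stands for. The main fit ignored this pairing, which entered the fits only as the replicate block, an alternative. SEs, p-values and calls thus come from fits without the pairing unless the block is named. Members, lists and alternatives were chosen with earlier results of these data known. Genes were named by rule: the 7 members, a fixed set of partners and receptors, up to 3 of each list by the F test, and the 5 closest profiles. VPS26A, PRKAA2, NLRP3 and individual markers were named after their values were seen. Alternatives were the replicate block, each array left out, quantile normalization, centring, a dim filter, mean probe sets, all probe sets, array weights, the axis covariate and separate fits.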

Additional observations from a re-analysis of the deposited data

Results flagged for a closer look

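For ARRDC1 and MLXIP, both progesterone arrays lay below both vehicle arrays, while both combination arrays lay above both RU-486 arrays. The effect of progesterone thus had the opposite sign without and with RU-486. The interaction was 0.21 ± 0.11 log2 units (SE) for ARRDC1 and 0.18 ± 0.12 for MLXIP. The interaction is the test of this difference, and limma called neither gene, at an adjusted or an unadjusted p under 0.05. Without combination replicate 1 the MLXIP interaction was 0.11, and its difference between combination and RU-486 was 0.04 in place of 0.12. Opposite moves of this kind, without overlap and in either order of signs, were present in 8.25% of all 18417 genes. The share with the same order of signs as ARRDC1 and MLXIP was not counted. With 2 arrays per group no group was large enough to be examined for outlying arrays.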

How the results depend on the processing

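The fit for all genes depended on single arrays and on how the spread was treated. Leaving out each array gave 0 to 1228 called genes for progesterone against vehicle (1228 without progesterone replicate 2), 0 to 1090 for the combination against progesterone and 0 to 998 for the average RU-486 effect, and 0 to 2 members in each of the last 2 comparisons. The counts of 1090 and 998 and the 2 members came without progesterone replicate 1. For the average RU-486 effect, the count of 6 became 0 without either vehicle array, RU-486 replicate 2 or either combination array, and 1 without RU-486 replicate 1. It was 0 over all probe sets, where p-values are adjusted over more features, and 11 with the axis score as a covariate, which gave 17 for the combination against progesterone. Array weights by group gave 3 genes for RU-486 against vehicle and 7 for the combination against vehicle. The cause of these changes was not tested. With the replicate block 1 gene was called for the combination against vehicle, and the block called no member in any comparison. Of 840 member differences recomputed under 15 alternatives, 41 moved by more than the pooled SD of the gene and 43 changed sign. The largest original difference among the latter was -0.15, for ARRDC4 in progesterone. The ARRDC3 difference kept its sign for RU-486 against vehicle (-0.47 to -0.37), the combination against vehicle (-0.69 to -0.47) and the average RU-486 effect (-0.50 to -0.37). Signals of ARRDC4 and MLXIPL near the array background limit what can be seen for them.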
